A study of Homo sapiens with 6 samples.

Results

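The genes described here are 8 components of the death receptor and caspase machinery, namely the TRAIL receptors *TNFRSF10A* and *TNFRSF10B*, the adaptor *FADD*, the initiator caspases *CASP8* and *CASP9*, the inflammatory caspase *CASP4*, and the inhibitors *CFLAR* and *XIAP*. They were taken by symbol from the deposited expression table, which held all 8 among its 17177 genes, and all 8 passed the filter on low values. The cells were NCI-H660, an established cell line of neuroendocrine prostate cancer (NEPC), labelled WT for genotype in every library. PBS-treated controls (3 libraries) were compared with cells treated with PP (3 libraries), all labelled day 3, to ask how pyrvinium pamoate (PP), an anthelmintic studied here as an inhibitor of the RNA-binding protein ELAVL3, alters the transcriptome. The concentration of PP was not found in the sources used here, and all libraries come from a cell line in culture, without the other cells of a tumour. Nothing in the labels says that the libraries came from separate cultures, and the study describes its RNA-seq replicates both as independent samples and as duplicates. P values therefore measure the spread between these libraries, which may be technical.

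TRAIL is a secreted or membrane-bound ligand that clusters its receptors on the target cell. The receptors carry a cytoplasmic death domain that recruits FADD, and FADD in turn gathers procaspase-8 into a complex in which the caspase becomes active. CFLAR (c-FLIP) resembles caspase-8 without its catalytic activity and competes for a place in that complex. A separate route runs from mitochondria through APAF1 and caspase-9, and both routes end in the executioner caspases, which XIAP binds and blocks together with caspase-9.

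Transcript levels are given as FPKM (fragments mapped to a gene, scaled to its length and to the size of the library). Whole counts could be recovered from the FPKM steps of all 17177 genes, and they summed to between 29064253 and 32481171 per library. Libraries of the same treatment differed by a chi-square per degree of freedom of 3.37 to 7.07, and libraries of different treatments by 149.17 to 170.25. Markers of the labelled cell type were present. All 7 neuroendocrine markers examined reached 1 FPKM, with a summed level of 784 to 792 FPKM with PBS and 384 to 402 FPKM with PP. The leukocyte gene *PTPRC* was at most 0.0204 FPKM. Of 5 leukocyte markers 2 reached 1 FPKM, and the 5 summed to 2.75 to 3.09 FPKM with PBS and 2.15 to 2.94 with PP. Of 6 markers of stroma and endothelium 1 reached 1 FPKM, and the 6 summed to 4.82 to 5.09 and 4.89 to 5.38. The 6 reference genes examined moved both ways without overlap between treatments. *ACTB*, *GAPDH*, *PPIA* and *HPRT1* were lower with PP, from 1670.2 to 1711 FPKM with PBS to 892 to 951 with PP for *ACTB* and from 66.1 to 69.4 to 56.0 to 60.5 for *HPRT1*. *TBP* was higher, from 24.3 to 26.6 FPKM to 33.2 to 35.7, as was *RPLP0*, from 530.4 to 552 FPKM to 643 to 694. The part of these shifts in the results was not tested. In bulk libraries such as these, fewer cells of a type and less RNA per cell cannot be told apart.

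With PP, 5 of the 8 genes were higher and none was lower, taking an adjusted p below 0.05 (Benjamini-Hochberg) in a limma model of log2(FPKM + 1) over the 11726 genes with a mean of at least 1 FPKM. Of all genes tested, 72.5% were called in either direction, 38.1% as higher and 34.4% as lower, so 5 of 8 called genes is a share near the background. The PP libraries all lay above the PBS libraries for these 5 genes and all below for none, where 39.5% of all genes lay wholly above, 35.5% wholly below and 75.0% either way. The size of the changes varied widely. *TNFRSF10B* stood 78th from the highest of the 11726 log2 fold changes and *CASP8* stood 323rd, whereas *XIAP*, *CFLAR* and *CASP4* stood 2358th, 3656th and 3777th. The median log2 fold change was 0.21 over the 8 genes and 0.02 over all genes tested. *TNFRSF10A*, *FADD* and *CASP9* were not called. A stricter cutoff asked for an unadjusted P below 0.001 and a log2 fold change past 1 in either direction, which 2.24% of all genes met as higher and 2.93% as lower. *TNFRSF10B* met it, and *CASP8* lay just outside at 0.92.

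**Figure D1:**
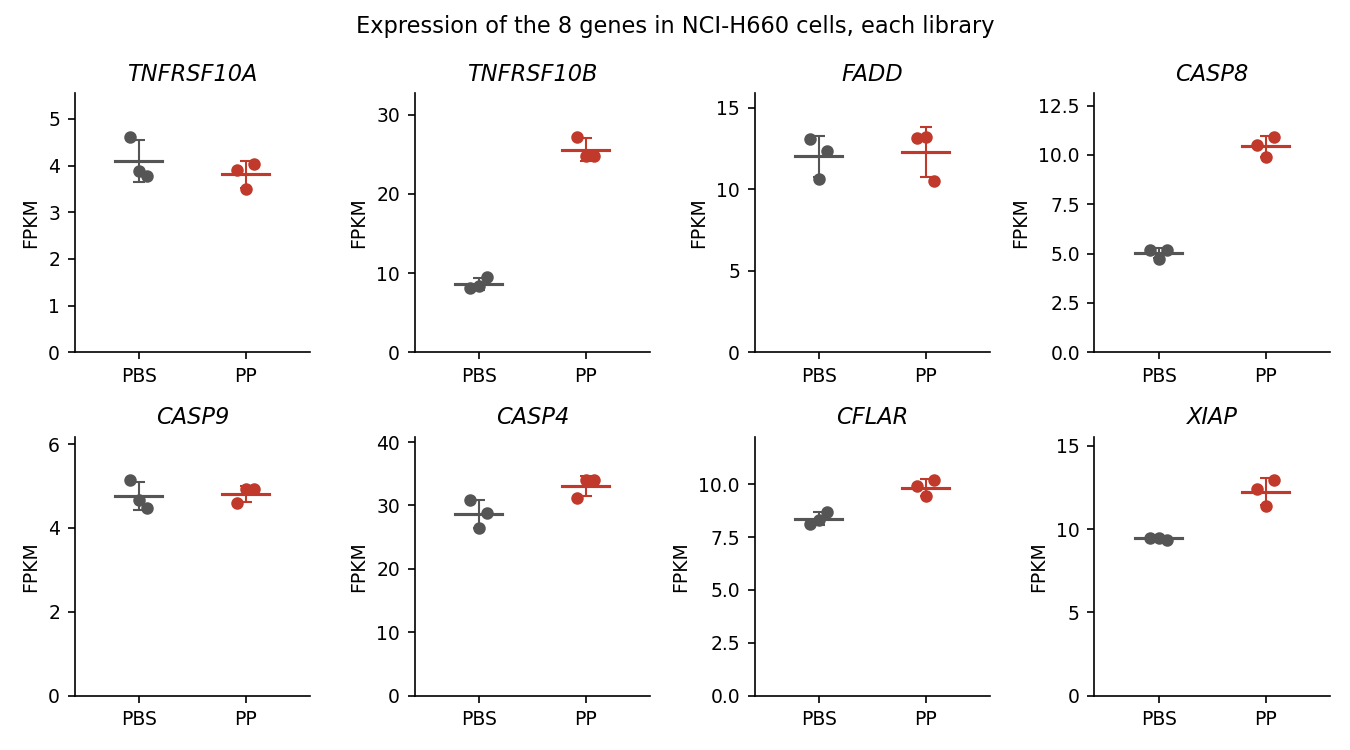
FPKM of each gene (y axis from 0, own scale per gene) in the 3 PBS and 3 PP libraries. Points are libraries, lines are means and error bars are SDs. The PP libraries lie above every PBS library for *TNFRSF10B*, *CASP8*, *CASP4*, *CFLAR* and *XIAP*, and the groups overlap for *TNFRSF10A*, *FADD* and *CASP9*.

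**Figure D2:**
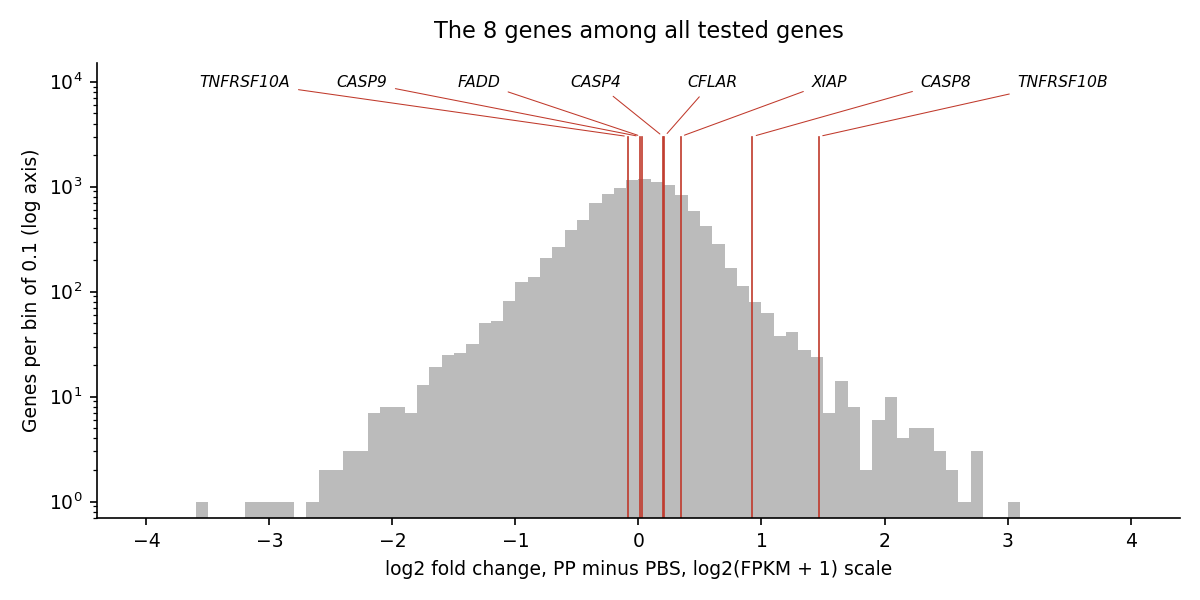
Histogram of the log2 fold changes (PP minus PBS) of all 11726 tested genes, with the number of genes per bin on a log axis and the 8 genes as red lines. *TNFRSF10B* at 1.46 and *CASP8* at 0.92 lie in the upper tail, and the other 6 lie between -0.08 and 0.34.

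The receptors differed from each other. *TNFRSF10B* encodes DR5 (TRAIL-R2), which carries a full death domain. Its FPKM was 8.06, 8.35 and 9.52 in PBS replicates 1, 2 and 3, and 27.2, 24.8 and 24.8 in PP replicates 1, 2 and 3. All PP libraries lay far above all PBS libraries, from 979 to 1189 counts with PBS and from 2994 to 3343 with PP. The mean rose from 8.64 ± 0.771 (SD, n = 3) to 25.6 ± 1.42 (SD, n = 3), which is a 2.96-fold difference. On the log2(FPKM + 1) scale the difference was 1.46 ± 0.06 (SE; limma adjusted p = 1.80e-08).

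*TNFRSF10A* encodes DR4 (TRAIL-R1), the other TRAIL receptor able to signal death. Its FPKM was 4.62, 3.89 and 3.78 with PBS and 3.90, 3.49 and 4.04 with PP, so the groups overlapped. The log2 fold change was -0.08 with a 95% confidence interval of -0.25 to 0.09 (adjusted p = 0.356 from limma). Within each library, the FPKM of *TNFRSF10B* was 1.74, 2.15 and 2.52 times that of *TNFRSF10A* with PBS, and 6.99, 7.09 and 6.13 times with PP. On the log2 scale, with 1 added to each FPKM, that ratio differed by 1.55 between the treatments. An exact two-sided permutation test gave p = 0.1, the smallest that 3 libraries against 3 allow, and 0.12 after adjustment over the 6 ratios examined.

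The decoy receptors *TNFRSF10C* and *TNFRSF10D*, which bind TRAIL without passing on a full death signal, were close to absent. *TNFRSF10C* had 0 to 7 counts per library and *TNFRSF10D* had 0 or 1. Of the summed FPKM of the 4 receptors, *TNFRSF10B* held 63.1% to 70.8% with PBS and 85.6% to 87.6% with PP. The sum itself went from between 12.4 and 13.4 FPKM to between 28.3 and 31.3 FPKM. These 4 genes are similar in sequence, so their values are uncertain wherever a read could match more than 1 of them.

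All 4 receptor genes lie side by side on chromosome 8 of GRCh38.p14 in RefSeq, where *TNFRSF10B* (ENSG00000120889) spans 23020133 to 23069031 and *TNFRSF10A* (ENSG00000104689) spans 23190452 to 23225102. *TNFRSF10C* and *TNFRSF10D* lie between them. Of these neighbours *TNFRSF10A* and *TNFRSF10C* were not called (adjusted p = 0.422 for *TNFRSF10C*, from limma over genes with a mean of at least 0.1 FPKM), and *TNFRSF10D* was too low to be fitted. By Euclidean distance between log2(FPKM + 1) values centred on the PBS mean, over 6 libraries, the profile of *TNFRSF10B* was nearest to those of *GADD45A* (distance 0.155), *SLC3A2* (0.165) and *GDF15* (0.172). Such a distance mainly matches genes on their log2 fold change, which was 1.44, 1.44 and 1.43 for these genes. Shared regulation was not tested. The profile of *TNFRSF10A*, the lowest of the 8 in fold change, was nearest to those of *LAMTOR3* (0.0624), *LYRM1* (0.0820) and *LY6G5B* (0.0907).

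*FADD* (ENSG00000168040), the adaptor between receptor and caspase-8, lies on chromosome 11 from 70203296 to 70207390. Its FPKM was 13.1, 10.6 and 12.4 with PBS and 13.1, 13.2 and 10.5 with PP. PBS replicate 2 and PP replicate 3 were the low libraries of their groups, and the spread within each group was larger than the difference between them. The log2 fold change was 0.03 with a 95% confidence interval of -0.18 to 0.23 (adjusted p = 0.808 from limma). Its sign changed when some libraries were left out.

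*CASP8* encodes the initiator caspase of the receptor route. Its FPKM was 5.18, 4.71 and 5.18 in the PBS replicates and 10.5, 9.88 and 10.9 in the PP replicates, with no overlap. The mean rose from 5.02 ± 0.269 (SD, n = 3) to 10.4 ± 0.524 (SD, n = 3), a 2.08-fold difference, on 416 to 487 counts with PBS and 899 to 1078 counts with PP. The difference was 0.92 ± 0.06 on the log2 scale (SE; limma adjusted p = 2.37e-07). With a pseudocount of 0.1 or with limma-voom it was 1.04 or 1.05, past the stricter cutoff.

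*CASP8* (ENSG00000064012) spans 201233463 to 201287711 on chromosome 2, and RefSeq gives 3 promoter windows for it, each from 250 bases before to 50 bases after a start site. The windows of the start sites at 201233463 and 201260536 are shown because *CASP8* had the largest rise among the genes with a window here. Neither *TNFRSF10B* nor *TNFRSF10A* had a window here, so their promoters were not searched for any motif. Capitals mark every match to the letters GGGCGG (GC box) or TGACTCA (AP-1), on either strand. The sequences stop 41 bases before each start site, and in GRCh38.p14 they lie on the plus strand at chr2:201233213-201233422 and chr2:201260286-201260495.

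CASP8 start 201233463: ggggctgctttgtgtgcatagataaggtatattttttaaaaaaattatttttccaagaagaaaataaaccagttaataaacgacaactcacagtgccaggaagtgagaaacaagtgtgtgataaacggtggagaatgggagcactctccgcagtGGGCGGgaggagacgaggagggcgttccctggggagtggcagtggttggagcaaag
CASP8 start 201260536: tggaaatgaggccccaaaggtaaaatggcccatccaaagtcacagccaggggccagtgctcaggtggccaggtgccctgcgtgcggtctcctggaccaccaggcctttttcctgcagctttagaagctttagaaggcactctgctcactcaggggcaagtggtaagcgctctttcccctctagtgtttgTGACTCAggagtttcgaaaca

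Counted from the start site, the GC box began at -96 and the AP-1 letters of the other sequence at -61. The remaining window, of the start at 201258035, held the AP-1 letters from -1. TGACTCA or its reverse complement was found in 4.95% of the 35116 RefSeq windows and GGGCGG in 45.0%. The GC box was not particular to *CASP8*, since *CFLAR*, *XIAP*, *CASP4*, *CASP9* and *FADD* also had windows with GGGCGG. The windows of *CASP9*, which was not called, held 8 and 9 matches, and that of *FADD*, also not called, held 2. The windows of *CFLAR*, *XIAP*, *CASP4*, *CASP9* and *FADD* held no TGACTCA, and no window of these genes or of *CASP8* held TGACGTCA (CRE, in 1.85% of all windows), TGATGCAA (amino acid response element, in 0.866%) or the NF-kB motif (in 0.191%). These matches describe letters only, and binding was not measured here.

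*CASP9* (ENSG00000132906, chromosome 1 from 15491401 to 15524912) encodes the initiator caspase of the mitochondrial route. Its FPKM was 5.14, 4.68 and 4.48 with PBS and 4.60, 4.92 and 4.93 with PP, so the groups overlapped. The log2 fold change was 0.01 with a 95% confidence interval of -0.12 to 0.15 (adjusted p = 0.85 from limma). *CASP8* stood at 1.01, 1.01 and 1.15 times the FPKM of *CASP9* in the PBS libraries and at 2.28, 2.01 and 2.21 times in the PP libraries. The groups did not overlap, with a log2 difference of 0.91 (exact permutation test, p = 0.1, adjusted p = 0.12).

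*CASP4* encodes an inflammatory caspase that senses bacterial lipopolysaccharide and cuts gasdermin D. It was the highest of the 8 genes in every library, at 30.8, 26.4 and 28.8 FPKM with PBS and 31.2, 33.9 and 34.0 FPKM with PP. The lowest PP library lay just above the highest PBS library. The mean rose by 15.3%, or 0.20 ± 0.06 on the log2 scale (SE; limma adjusted p = 0.0104), on 1064 to 1533 counts. *CASP4* (ENSG00000196954) lies on chromosome 11 from 104942866 to 104968574, next to its relatives *CASP5* and *CASP1*. Both neighbours were low. *CASP5* had 0 or 1 counts with PBS and 4 to 12 with PP, and *CASP1*, which activates interleukin-1β, had 11 to 28 with PBS and 42 to 55 with PP (adjusted p = 0.00275 from limma, fitted to genes with a mean of at least 0.1 FPKM).

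*CFLAR* encodes the caspase-8-like inhibitor c-FLIP. Its FPKM was 8.10, 8.30 and 8.71 with PBS and 9.90, 9.42 and 10.2 with PP, without overlap. The mean rose by 17.6%, or 0.21 ± 0.05 on the log2 scale (SE; limma adjusted p = 0.00372). The FPKM of *CFLAR* was 1.56, 1.76 and 1.68 times that of *CASP8* in the PBS libraries and 0.943, 0.953 and 0.933 times in the PP libraries, so that *CFLAR* stood above *CASP8* in every PBS library and below it in every PP library. The log2 ratio differed by -0.71 (exact permutation test, p = 0.1, adjusted p = 0.12). The long and short forms of c-FLIP come from the same gene and are not separated in these values.

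The FPKM of *FADD* was 2.53, 2.26 and 2.39 times that of *CASP8* with PBS, and 1.25, 1.34 and 0.963 times with PP (log2 difference -0.90, exact permutation test, p = 0.1, adjusted p = 0.12).

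*CFLAR* and *CASP8* are near neighbours. *CFLAR* (ENSG00000003402) spans 201116164 to 201176687 on chromosome 2, followed by *CASP10* from 201183141 to 201229406 and then by *CASP8*. *CASP10* encodes a relative of caspase-8 that also joins the receptor complex. Its mean went from 0.712 to 0.328 FPKM, a fold of 0.461, on 129 to 167 counts with PBS and 58 to 85 with PP. On the log2(FPKM + 1) scale, which understates changes at such low levels, the difference was -0.37. The adjusted p was 0.00188 from limma, fitted to genes with a mean of at least 0.1 FPKM. The gene in the middle was therefore lower with PP, and the genes on its flanks were higher. In that fit, over 13771 genes, 34.4% of all genes were called as higher and 32.4% as lower.

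*XIAP* (ENSG00000101966, chromosome X from 123859708 to 123913972) encodes an inhibitor that binds and blocks caspases, caspase-9 among them. Its FPKM was 9.46, 9.49 and 9.37 with PBS and 12.4, 11.4 and 12.9 with PP, without overlap. The PBS libraries were much closer together than the PP libraries, with SDs of 0.0608 and 0.803 FPKM. The mean rose by 29.7%, or 0.34 ± 0.05 on the log2 scale (SE; limma adjusted p = 0.000209), on 2442 to 3724 counts. Within each library *XIAP* stood at 1.84, 2.03 and 2.09 times the FPKM of *CASP9* with PBS and at 2.71, 2.31 and 2.62 times with PP (log2 difference 0.33, exact permutation test, p = 0.1, adjusted p = 0.12). RefSeq lists pseudogenes of *XIAP*, and reads shared with them could have been counted for either.

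*DIABLO* (SMAC), which leaves mitochondria to displace XIAP from caspases, went from 23.1 ± 1.54 to 26.3 ± 1.55 FPKM (SD, n = 3 each) with a log2 fold change of 0.18 (adjusted p = 0.0183 from limma). The FPKM of *XIAP* was 0.402, 0.443 and 0.384 times that of *DIABLO* with PBS and 0.464, 0.413 and 0.527 times with PP. These groups overlapped (log2 difference 0.16, exact permutation test, p = 0.2, adjusted p = 0.2).

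The order of the 8 levels changed with treatment. With PBS it ran *CASP4*, *FADD*, *XIAP*, *TNFRSF10B*, *CFLAR*, *CASP8*, *CASP9* and *TNFRSF10A* by mean FPKM. The ranges of *XIAP* and *TNFRSF10B*, of *TNFRSF10B* and *CFLAR*, of *CASP8* and *CASP9* and of *CASP9* and *TNFRSF10A* overlapped, so these neighbours could not be ordered. With PP, *TNFRSF10B* was second and lay clear of *FADD*, and the ranges of *CASP8* and *CFLAR* overlapped, as did those of *FADD* and *XIAP*.

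FPKM depends on the gene length used, and the lengths implied by the recovered counts differed greatly. The implied length was 19145 bases for *CFLAR*, against 14612 for its longest GENCODE transcript, and 1388 bases for *CASP4*, against 4745. *CFLAR* accordingly had the most counts of the 8 genes, with 4616 to 6340 per library. Levels set between genes, and the ratios above, move with these lengths, whereas the fold of a gene between treatments does not.

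The other genes of the pathway were read from 10 lists. Of 69 symbols, 64 were in the table and 44 were tested, of which 17 were higher and 17 were lower, against 38.1% and 34.4% of all genes. Their median log2 fold change was 0.03. The counts given below for each list stand beside the same shares of all genes, 72.5% of which were called in either direction.

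Of the death ligands, *TNFSF10*, which encodes TRAIL itself, was the gene with enough signal for the fit. It went from 2.41 ± 0.229 to 0.788 ± 0.106 FPKM (SD, n = 3 each), on 190 to 243 and 65 to 82 counts. The difference was -0.93 ± 0.08 on the log2 scale (SE; limma adjusted p = 2.45e-06). TRAIL was thus lower in the libraries in which its receptor *TNFRSF10B* was higher. *TNF* fell from 1.01 to 0.463 FPKM and *TNFSF15* from 0.744 to 0.316, while *LTA* rose from 0.18 to 0.592 (adjusted p = 0.000883, 0.00107 and 0.000253 from limma over genes with a mean of at least 0.1 FPKM). *FASLG* had at most 1 count per library.

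Of the other death and decoy receptors, 3 of 4 tested were higher and 1 was lower. *TNFRSF21* (DR6), a death-domain receptor, had a log2 fold change of 1.40 (adjusted p = 6.38e-10 from limma), close to that of *TNFRSF10B*, and rose from 14.1 to 38.8 FPKM. *TNFRSF11B* (osteoprotegerin), a soluble receptor that can bind TRAIL, rose from 0.540 to 1.84 FPKM, a 3.40-fold difference. It had 24 to 42 counts with PBS and 90 to 139 with PP. On the log2(FPKM + 1) scale, which understates changes at such low levels, its rise was 0.88. *TNFRSF25* (DR3), a receptor for TNFSF15, went from 22.1 to 10.7 FPKM (log2 fold change -0.98, adjusted p = 2.82e-08 from limma). *TNFRSF1A*, the main TNF receptor, had a log2 fold change of 0.21 (adjusted p = 0.0465 from limma). *FAS* was low, at 153 to 162 counts with PBS and 94 to 122 with PP. It fell from 0.648 to 0.442 FPKM (adjusted p = 0.0162 from limma over genes with a mean of at least 0.1 FPKM).

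The adaptors and complex proteins went both ways, with 3 higher and 3 lower of 8 tested. *PIDD1*, a scaffold for caspase-2, fell by 0.70 on the log2 scale and *TRADD*, the adaptor of TNFRSF1A, fell by 0.31. *CASP8AP2* (FLASH), a caspase-8 binding protein, rose by 0.35. *RIPK3*, the kinase that drives necroptosis, had at most 1 count per library.

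Of the other caspases, 1 of 4 tested was higher and 2 were lower. *CASP6* fell by 0.26 and *CASP2* by 0.17 (adjusted p = 0.00395 and 0.0201 from limma). In the apoptosome, *CYCS* (cytochrome c) rose by 0.12, and *APAF1*, its partner and the platform of caspase-9, had a log2 fold change of -0.11 (adjusted p = 0.0578 from limma), not called like *CASP9* itself.

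Of the other inhibitors, 2 of 5 tested were higher and 1 was lower. *BIRC2* (cIAP1), which tags RIPK1 with ubiquitin, rose by 0.30 and the giant IAP *BIRC6* rose by 0.15. *BIRC5* (survivin), which also serves in mitosis, fell by 0.61 (adjusted p = 1.64e-07 from limma). *HTRA2* and *AREL1*, from the list of IAP antagonists, fell by 0.17 and 0.14.

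The caspase substrates and gasdermins held 6 lower and 1 higher gene of 9 tested, where 34.4% of all genes tested were lower and 38.1% higher. The list is short and was chosen with earlier results known, so this count describes its genes only. *DFFB*, the nuclease that cuts DNA in apoptosis, fell by 0.73 (7.95 to 4.41 FPKM). *BID*, the protein through which caspase-8 reaches mitochondria, fell by 0.56 (5.62 to 3.50 FPKM), and *PARP1* fell by 0.47 (145.1 to 104.7 FPKM), all with an adjusted p of at most 1.19e-05 from limma. Of the 4 inflammasome genes tested, *NLRP1* rose by 0.38, *NOD1* fell by 0.40 and the remaining 2 were not called.

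The 4 listed factors known to act on the *TNFRSF10B* promoter were all higher with PP, against 38.1% of all genes tested. This list, like the others, was chosen with earlier results of these data known, so the count is no independent evidence. *DDIT3* (CHOP), a stress-induced transcription factor, went from 109.1 ± 0.343 to 415.3 ± 19.9 FPKM (SD, n = 3 each), a log2 fold change of 1.92 (adjusted p = 1.07e-10 from limma). *ATF4*, which acts upstream of it, rose by 0.65 and *SP1* by 0.53. Whether any of them bears on *TNFRSF10B* here was not tested.

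**Figure D3:**
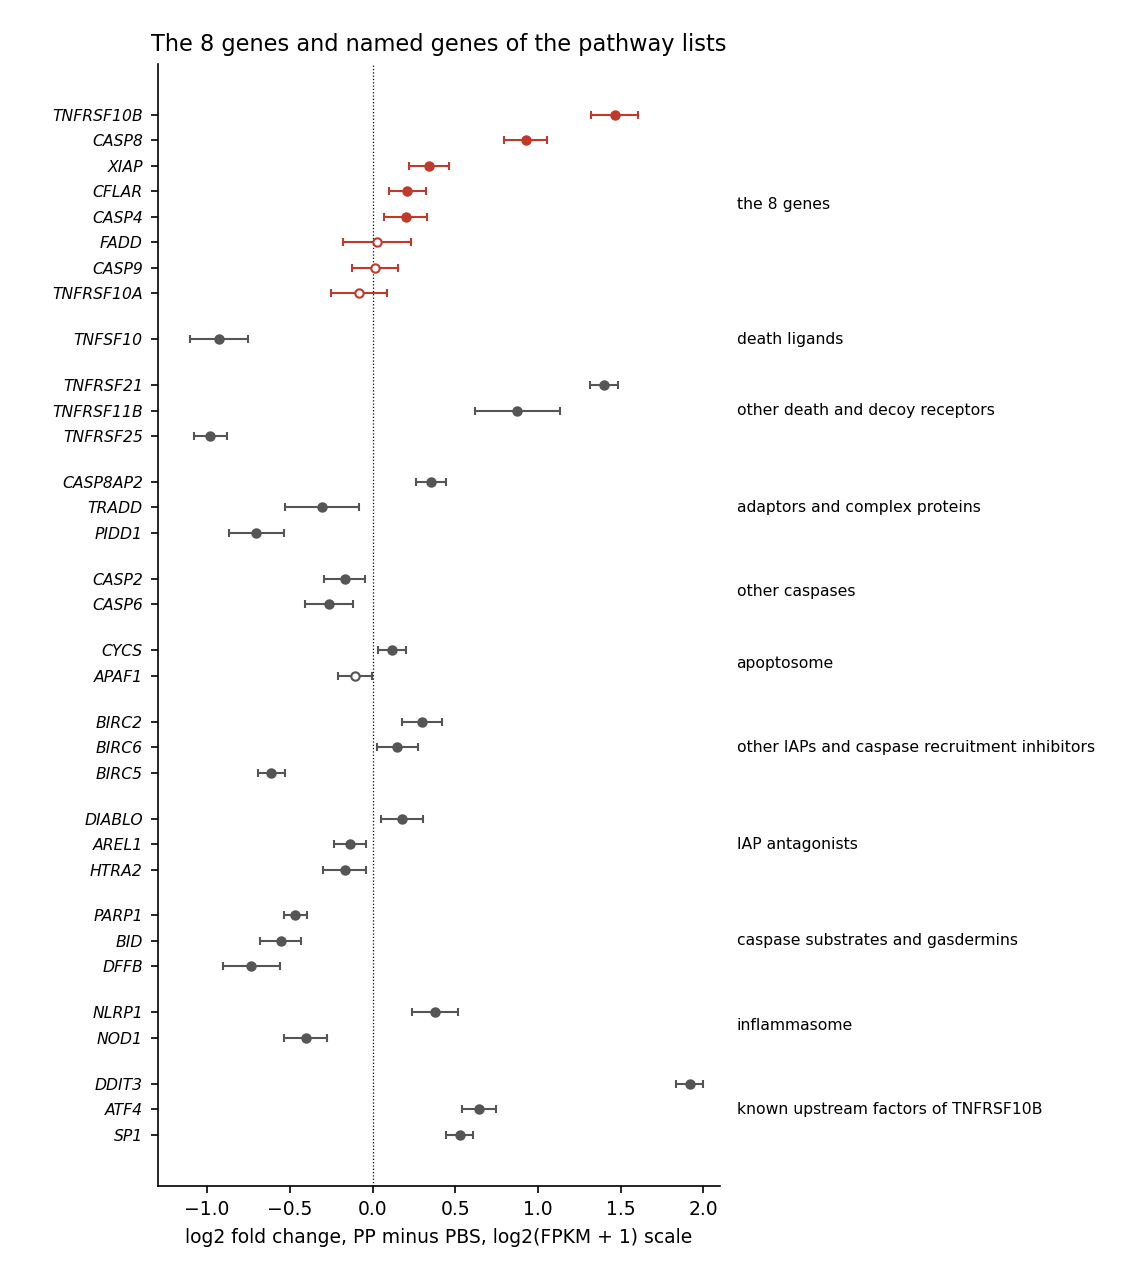
Log2 fold change (PP minus PBS, log2(FPKM + 1) scale, x axis) with its 95% confidence interval from limma for the 8 genes (red) and named genes of the pathway lists (grey). Filled points have an adjusted p under 0.05 and open points do not. On this scale *TNFRSF10B* and *TNFRSF21* are both near 1.4, *DDIT3* is the highest at 1.92 and *TNFRSF25* the lowest at -0.98. The scale understates changes of low genes. In FPKM, *TNFSF10* (-0.93 here) fell further, to a fold of 0.327 against 0.484 for *TNFRSF25*.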

How the data were processed

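The data were RNA-seq of poly(A) libraries of NCI-H660 cells made with a stranded kit, 3 treated with PBS and 3 with PP, grouped and numbered by sample title. A figure legend of the study gives 3 independent samples for this experiment, whereas its methods give duplicates, 2 per group, for RNA-seq, so what the 3 deposited libraries per group replicate is unclear. The authors deposited FPKM values per gene symbol and library, without counts. The submitters' processing notes name fastp, HISAT2, HTSeq and GRCh38, whereas the methods name Bowtie, hg19, RSEM, Cufflinks and HTSeq-count, so which gave the deposited values is unclear, as is whether strand was used in counting (*CFLAR* has an antisense neighbour). Gene positions and promoter windows are those of RefSeq on GRCh38.p14, and transcript lengths those of the GENCODE annotation mapped to GRCh37. They were joined by symbol.

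Whole counts were recovered where every value of a gene was a whole multiple of a step, with a tolerance of 0.01 of a count, using Python 3.11.15, numpy 2.4.6, pandas 2.3.3 and scipy 1.17.1. Genes with a mean of at least 1 FPKM over the 6 libraries (11726 genes) were fitted as log2(FPKM + 1) with limma 3.58.1 in R 4.3.3 (lmFit, eBayes with trend), with Benjamini-Hochberg adjustment over all of them. Genes under that level were read from the same fit over genes with a mean of at least 0.1 FPKM (13771 genes). A pseudocount of 1 understates the change of low genes. Ratios within a library were compared by a two-sided exact permutation test. The steps were tested on simulated data.

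The 8 genes and all lists were chosen with earlier results of these data known. Named genes were the 8 genes, up to 3 genes with the largest absolute log2 fold change among those called in each list, and *DDIT3*, *TNFSF10*, *DIABLO* and *APAF1*, with the 3 genes nearest in profile to the members of highest and lowest log2 fold change. *TNF*, *TNFSF15*, *LTA*, *FASLG*, *FAS*, *TNFRSF1A*, *TNFRSF10C*, *TNFRSF10D*, *RIPK3*, *CASP1*, *CASP5* and *CASP10* were named after their values were seen. Some genes that this rule names are not reported here. No set test was run. Alternatives varied the pseudocount, filter, scaling, eBayes trend, block, libraries and tool.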

Additional observations from a re-analysis of the deposited data

How the results depend on the processing

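Every alternative run kept 5 of the 8 genes called as higher and none as lower. Over the 6 fits that each omit a library, the log2 fold change was 1.42 to 1.53 for *TNFRSF10B*, 0.89 to 0.96 for *CASP8*, 0.30 to 0.39 for *XIAP*, 0.19 to 0.24 for *CFLAR* and 0.14 to 0.25 for *CASP4*, whose adjusted p from limma reached at most 0.0442. It was -0.13 to -0.01 for *TNFRSF10A*, and it changed sign for the uncalled *CASP9* (-0.0214 to 0.0599) and *FADD* (-0.0527 to 0.126). At the stricter cutoff, 263 genes were higher and 344 lower. Limma-voom on recovered counts gave 397 and 559, and a pseudocount of 0.1 gave 531 lower. The cause was not tested. With genes of a mean of at least 5 FPKM, *TNFRSF10A* and *CASP9* could not be fitted. Median-ratio scaling moved the median of all genes from 0.02 to 0.01. Same-numbered libraries showed no shared deviation, with correlations of -0.211, -0.014 and -0.127. These values cannot settle whether the libraries were paired by design, which the sample titles do not state. With the replicate block, 5 of the 8 genes were higher, *CASP4* at an adjusted p of 0.0246 from limma, and the ratios gave p = 0.25 to 0.5 by an exact sign-flip permutation test, of which 0.25 is the smallest possible. The number of libraries limits the ratios, and counts limit the decoy receptors, *CASP5* and *CASP1*.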
